A study of Mus musculus with 8 samples.

Results

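Lysosomal genes were examined in epididymal white adipose tissue, a visceral fat depot next to the testis, of mice lacking the succinate receptor gene *Sucnr1*. The list held 43 genes for acid hydrolases, lysosomal membrane proteins, subunits of the proton pump and the transcription factor *Tfeb*. It was chosen by gene name, with earlier results of these data known. Of the 43 genes, 40 were measured among the 18820 genes represented on the arrays by a probe set with exactly 1 gene symbol. For a gene with several such probe sets the brightest was used, which among the 40 concerned *Arsb* alone. *Ctsb*, *Sgsh* and *Atp6v0c* had no probe set of their own in the annotation used and are not analysed here.

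RNA came from male mice on a C57BL/6 background that received a low-fat diet (LFD) for 16 weeks from an age of 8 to 10 weeks. They were killed at 24 to 26 weeks. These ages are those of the sample records, and the methods of the study give a wider range of starting ages. The WT group (n = 4) and the *Sucnr1*-/- group (n = 4) were homozygous offspring of heterozygous parents, and each mouse had an array of its own. The disrupted allele carries an IRES/lacZ/neo cassette in place of much of exon 2 in every cell of the body, so that effects in adipocytes and in other cells of the fat pad cannot be told apart. The comparison asks how adipose gene expression differs without the receptor in mice that were not made obese.

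Lysosomes take up proteins, glycans and lipids from endocytosis, phagocytosis and autophagy and break them down with hydrolases that work in acid. The vacuolar proton pump (V-ATPase) makes the lumen acid, and membrane proteins protect the limiting membrane and export the products. Transcription of many of these genes is raised together by TFEB and its relatives, which bind E-box sequences in their promoters. In adipose tissue macrophages are rich in lysosomes, and adipocytes also carry them.

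*Sucnr1* itself was at log2 values of 8.68, 8.97, 9.38 and 9.78 in the 4 WT mice and of 6.02, 6.05, 5.41 and 7.11 in the 4 *Sucnr1*-/- mice. Every knockout mouse lay below every WT mouse, with a log2 difference of −3.06 ± 0.36 (SE), which matched the labels. *Adipoq*, the adipocyte hormone adiponectin, lay between 13.17 and 13.35 in all 8 mice, on arrays whose medians lay between 6.28 and 6.36. All values are on the log2 scale and all differences are *Sucnr1*-/- minus WT.

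E-boxes with the letters CACGTG, a sequence that reads the same on both strands, were searched in the 300 bases from 250 before to 50 after the annotated start of each gene (RefSeq, GRCm38.p6). Promoters were found for 37 of the 43 listed genes, and 14 of these (37.8%) held an E-box, against 8.09% of all genes with a promoter record and 9.57% of those on the arrays. The longer form TCACGTGA, which contains the shorter one, was present in 6 of 37 (16.2%), against 1.12% of all genes and 1.52% of those on the arrays. Those 6 were *Ctsa*, *Ctsd*, *Gla*, *Mcoln1*, *Atp6v0d1* and *Atp6v1a*. *Atp6v1b2*, *Atp6v1h*, *Ctsb*, *Ctsh*, *Npc1* and *Asah1* had no promoter record. A gene with several annotated starts, as 4 of the 37 had, counted if any of them held a match. A match describes the letters in this window only and does not show that a factor binds there. That the letters of minus-strand genes run along the gene strand was inferred from the position of TATA boxes, a promoter motif. The following stretches of 64 bases show how the E-box sits in promoters of a protease, a pump subunit, a calcium channel, the standard lysosomal marker, a further pump subunit, α-galactosidase and a carboxypeptidase, with E-boxes in capitals, 5′ to 3′ on the strand of the gene. They lie at chr7:142387894-142387957 (minus strand, *Ctsd*), chr16:44139359-44139422 (minus, *Atp6v1a*), chr8:3500429-3500492 (plus, *Mcoln1*), chr8:13159089-13159152 (plus, *Lamp1*), chr4:117887338-117887401 (minus, *Atp6v0b*), chrX:134601182-134601245 (minus, *Gla*) and chr2:164833709-164833772 (plus, *Ctsa*).
Ctsd: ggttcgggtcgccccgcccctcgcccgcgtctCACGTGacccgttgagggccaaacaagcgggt
Atp6v1a: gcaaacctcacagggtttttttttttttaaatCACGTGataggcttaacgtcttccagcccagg
Mcoln1: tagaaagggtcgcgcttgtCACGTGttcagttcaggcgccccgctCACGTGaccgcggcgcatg
Lamp1: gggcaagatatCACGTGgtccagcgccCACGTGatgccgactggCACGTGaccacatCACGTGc
Atp6v0b: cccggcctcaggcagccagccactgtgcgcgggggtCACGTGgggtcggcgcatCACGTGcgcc
Gla: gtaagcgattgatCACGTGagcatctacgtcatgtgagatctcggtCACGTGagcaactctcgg
Ctsa: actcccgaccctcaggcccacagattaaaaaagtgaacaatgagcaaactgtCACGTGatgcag

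Most lysosomal genes had a slightly lower mean in *Sucnr1*-/- than in WT mice, and none passed the test over all genes. Lower means were found for 32 of 40 genes, against 46.8% of all genes. Under other scalings of the arrays this was 27 to 33 of 40, against 34.0% to 57.4% of all genes. The median log2 difference was −0.11 over the lysosomal genes and 0.01 over all genes. With the dimmest 40% of genes left out, 54.0% of the remaining genes had a lower mean, and their median was −0.013. The differences of the lysosomal genes ran from −0.58 for *Ctss* to 0.15 for *Ctso*. With limma and Benjamini-Hochberg adjustment 0 of 40 lysosomal genes and 0.0% of all genes passed an adjusted p of 0.05, and the smallest adjusted p of a lysosomal gene was 0.712. Over all genes the smallest was 0.321, that of *Sucnr1*, although its groups were far apart. The methods' t-test (equal variance, per gene), which they name for comparisons of 2 groups in general, also gave 0 genes after adjustment. Which test the study ran on the arrays is not stated in the text used here.

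At an unadjusted p under 0.05 in limma, 11 of 40 lysosomal genes (27.5%) were lower in *Sucnr1*-/- mice, against 3.36% of all genes, and 0 were higher, against 3.46% of all genes. The 11 were *Ctsz*, *Ctsh*, *Ctss*, *Ctsl*, *Ctsd*, *Gusb*, *Cd63*, *Scarb2*, *Atp6v0a1*, *Atp6v1b2* and *Atp6v1a*. For *Ctsz*, *Cd63*, *Atp6v0a1* and *Atp6v1b2* every knockout mouse lay below every WT mouse (4 of 40, 10.0%, against 1.87% of all genes). No lysosomal gene had all knockout mice above all WT mice, which was the case for 2.37% of all genes. The count of 11 fell when some single mice were left out, to 5 without WT replicate 1, 5 without knockout replicate 2 and 6 without WT replicate 3. Over all genes the lower count was 632 with all mice and 518, 368 and 601 in these fits, in that order. None of the 11 changed direction in any of them. In RNA from whole tissue, fewer cells of a type and less RNA per cell cannot be told apart.

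**Figure D1:**
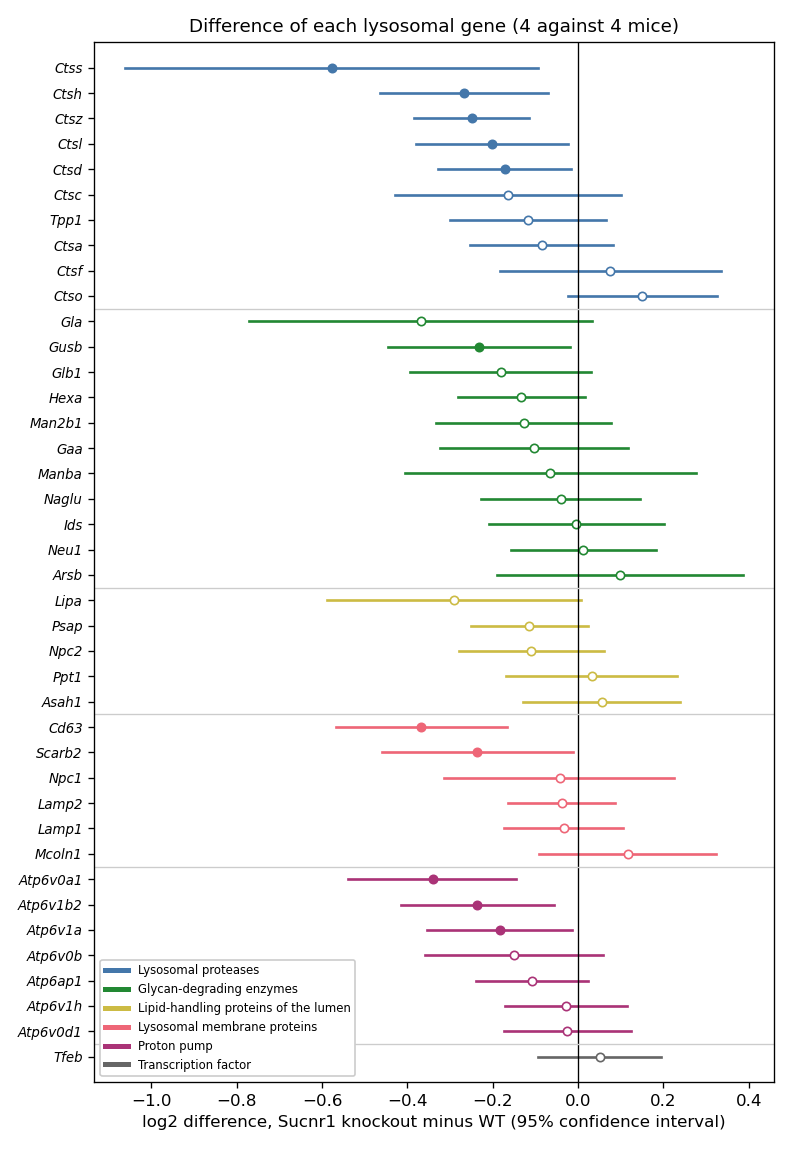
Log2 difference (*Sucnr1*-/- minus WT, x axis) of each of the 40 measured lysosomal genes, grouped by role, with 95% confidence intervals from limma, not adjusted for the number of genes. Filled points are genes with an unadjusted p under 0.05. Most points lie left of 0, with a median of −0.11, and the largest difference is that of *Ctss* at −0.58.

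The plot of differences by gene shows the lysosomal proteases with the lowest median of the roles, −0.17. Of 10 proteases measured, 8 had a lower mean, 5 of them with an unadjusted p under 0.05. *Ctsz*, a carboxypeptidase of the cathepsin family, was at 12.49, 12.34, 12.44 and 12.39 in WT and at 12.19, 12.09, 12.20 and 12.18 in *Sucnr1*-/- mice. Its group means, 12.41 ± 0.06 and 12.16 ± 0.05 (SD, n = 4), did not overlap in any mouse, and the *Sucnr1*-/- mean was 15.9% lower (difference −0.25 ± 0.06 SE; two-sided exact permutation p = 0.0286, the smallest that 4 mice against 4 allow). *Ctss*, a cysteine protease of antigen-presenting cells that cuts the invariant chain of MHC class II, was at 11.36, 10.41, 11.35 and 10.69 in WT and at 10.40, 10.19, 10.39 and 10.51 in knockout mice. WT replicates 1 and 3 were high, and WT replicate 2 lay among the knockout mice, so that a difference of −0.58 ± 0.21 (SE), or 33.0%, came with overlapping groups (exact permutation p = 0.0571).

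*Ctsh*, an aminopeptidase, was at 10.28, 10.16, 10.39 and 10.05 in WT and at 9.97, 9.84, 9.95 and 10.05 in *Sucnr1*-/- mice. The groups touched only where knockout replicate 4 met the lowest WT mouse, and the difference was −0.27 ± 0.09 (SE). *Ctsl*, an endopeptidase of broad specificity, was at 12.62, 12.28, 12.51 and 12.53 in WT and at 12.27, 12.26, 12.33 and 12.28 in knockout mice. WT replicate 2 alone lay among the knockout values, with a difference of −0.20 ± 0.08. *Ctsd*, the main aspartic protease, was at 13.04, 12.96, 13.02 and 13.08 in WT and at 12.86, 12.71, 12.87 and 12.97 in knockout mice. Here the highest knockout mouse exceeded the lowest WT mouse by less than the spread within either group, and the difference was −0.17 ± 0.07. The exact permutation p was 0.0571 for each of *Ctsh*, *Ctsl* and *Ctsd*.

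The other proteases overlapped more. *Ctsc*, which activates serine proteases of granules, differed by −0.17 ± 0.12 (SE) and the tripeptidyl peptidase *Tpp1* by −0.12 ± 0.08. *Ctsa*, a carboxypeptidase that also protects sialidase and β-galactosidase, differed by −0.08 ± 0.07. Without single mice these differences ran from −0.243 to −0.076, −0.171 to −0.07 and −0.137 to −0.045, in that order. Higher means were found for the cysteine proteases *Ctso*, at 0.15 ± 0.08, and *Ctsf*, at 0.08 ± 0.11.

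Among 11 enzymes that degrade glycans, 9 had a lower mean, 1 was lower at an unadjusted p under 0.05 and the median was −0.10 (−0.01 without WT replicate 4, −0.16 without WT replicate 1). That gene, *Gusb*, which encodes β-glucuronidase, was at 9.71, 9.37, 9.46 and 9.44 in WT and at 9.15, 9.16, 9.39 and 9.35 in *Sucnr1*-/- mice. Only knockout replicate 3 exceeded the lowest WT mouse, and the mean was 14.8% lower (difference −0.23 ± 0.09 SE; exact permutation p = 0.0571). *Gla*, the α-galactosidase, differed by −0.37 with a 95% confidence interval of −0.77 to 0.03, and by −0.22 without WT replicate 1. *Glb1*, a β-galactosidase, differed by −0.18 ± 0.09 (SE; −0.22 without WT replicate 1) and *Hexa*, a subunit of β-hexosaminidase, by −0.13 ± 0.07. *Man2b1*, an α-mannosidase, differed by −0.13 ± 0.09 (−0.184 to −0.068 without single mice). For *Gaa*, which breaks down glycogen, the difference was −0.10 ± 0.10 (−0.01 without WT replicate 4). *Manba*, *Naglu* and *Ids*, enzymes of mannoside, heparan sulphate and sulphated glycosaminoglycan breakdown, lay between −0.07 and −0.004. The sialidase *Neu1*, at 0.012, and the sulphatase *Arsb*, at 0.10, had higher means, each smaller than its standard error.

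Of 5 lipid-handling proteins of the lumen 3 had a lower mean (median −0.11, and −0.07 without knockout replicate 1), and 0 reached an unadjusted limma p of 0.05. *Lipa*, the acid lipase that hydrolyses cholesteryl esters and triacylglycerols, was at 11.17, 10.82, 11.44 and 10.91 in WT and at 10.78, 10.68, 10.88 and 10.84 in *Sucnr1*-/- mice. WT replicates 1, 3 and 4 were above all knockout mice and WT replicate 2 lay among them, with a difference of −0.29 (95% confidence interval −0.59 to 0.006; exact permutation p = 0.0857) that was −0.18 without WT replicate 3. It reached an unadjusted p under 0.05 in 5 of 18 alternative settings. *Psap*, the precursor of the saposins that help enzymes act on sphingolipids, differed by −0.11 ± 0.06 (SE). *Npc2*, a cholesterol carrier, differed by −0.11 ± 0.08 (−0.146 to −0.065 without single mice). *Asah1*, a ceramidase, had a difference of 0.06 ± 0.08 and *Ppt1*, which removes palmitate from proteins, one of 0.03 ± 0.09.

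Of 6 membrane proteins 5 had a lower mean (median −0.04, and −0.09 without WT replicate 1), 2 of them with an unadjusted p under 0.05. Tetraspanin gene *Cd63*, whose product marks late endosomes and secretory granules, was at 11.04, 11.07, 10.91 and 10.97 in WT and at 10.87, 10.55, 10.59 and 10.52 in *Sucnr1*-/- mice. All 4 knockout mice lay below all WT mice, with a mean 22.5% lower (difference −0.37 ± 0.09 SE; exact permutation p = 0.0286). *Scarb2*, which encodes LIMP-2 and carries glucocerebrosidase to the lysosome, was at 10.68, 10.87, 10.62 and 10.76 in WT and at 10.37, 10.32, 10.65 and 10.64 in knockout mice. Knockout replicates 1 and 2 were low and the other knockout mice lay within the WT range (difference −0.24 ± 0.10 SE; exact permutation p = 0.0857).

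The other membrane genes had smaller differences. *Lamp1*, the standard marker of the lysosomal membrane, was at 12.13, 12.02, 12.18 and 12.04 in WT and at 12.00, 12.06, 12.08 and 12.10 in *Sucnr1*-/- mice. The groups overlapped, and the interval of the difference (−0.03; 95% confidence interval −0.17 to 0.105) left room for a change in either direction. *Lamp2* gave −0.04, with an interval of −0.16 to 0.09, and *Npc1*, the cholesterol exporter, −0.04 ± 0.12 (SE). *Mcoln1*, the calcium channel of the lysosome, had a higher mean, at 0.12 ± 0.09 (0.04 without WT replicate 1).

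**Figure D2:**
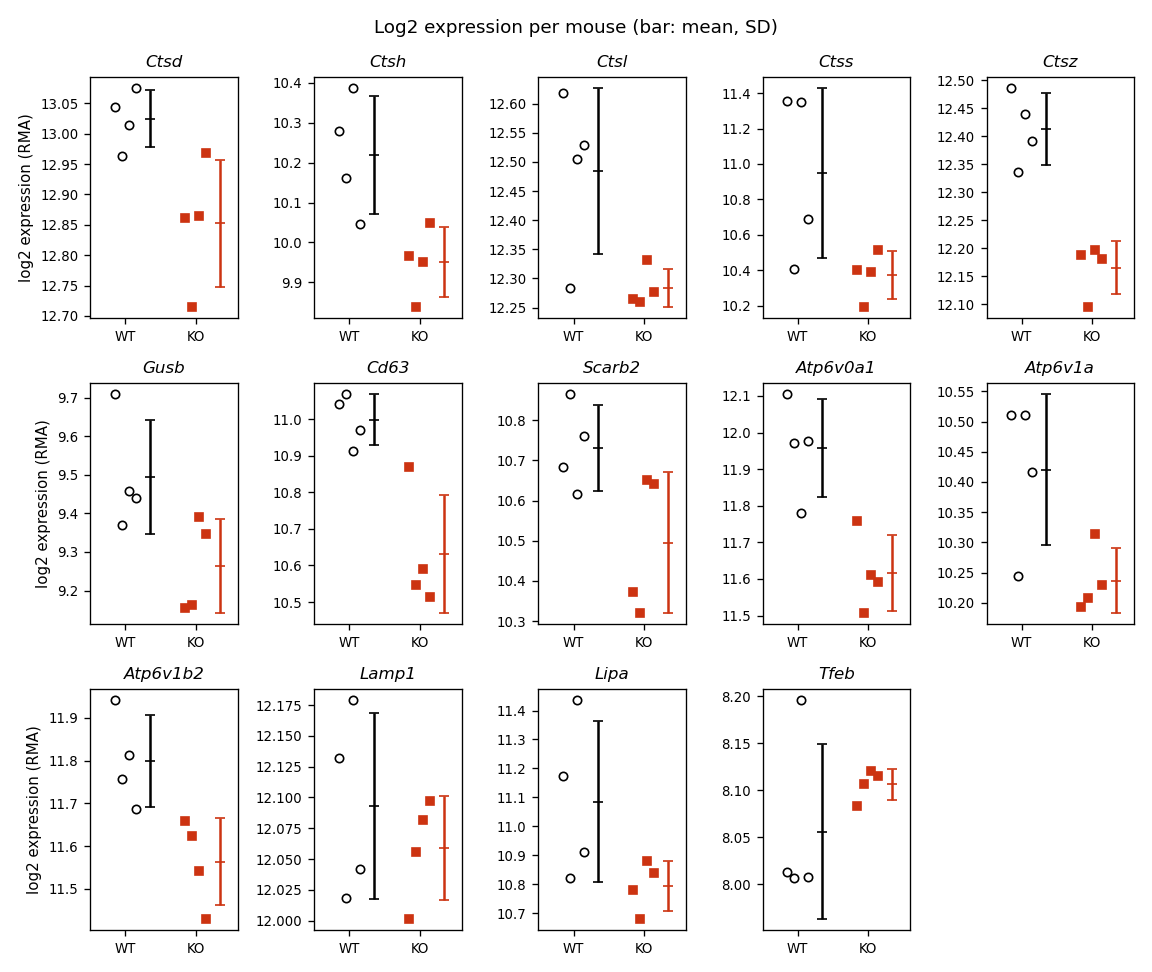
Log2 expression (y axis, a separate scale per panel) of single lysosomal genes in each of the 4 WT (open circles) and 4 *Sucnr1*-/- mice (KO, filled squares), with group mean and SD as bars. The knockout points of *Ctsz*, *Cd63*, *Atp6v0a1* and *Atp6v1b2* all lie below the WT points, whereas those of *Lamp1* and *Tfeb* overlap.

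All 7 measured pump genes had a lower mean in *Sucnr1*-/- mice (5 of 7 with arrays centred on the median of the genes used, where *Atp6v1h* and *Atp6v0d1* turned), with a median of −0.15, 3 of them with an unadjusted p under 0.05. *Atp6v0a1*, an isoform of the large membrane subunit of the pump, was at 12.11, 11.97, 11.78 and 11.98 in WT and at 11.76, 11.51, 11.61 and 11.59 in knockout mice. The groups did not overlap, though knockout replicate 1 came close to WT replicate 3, and the mean was 21.1% lower (difference −0.34 ± 0.09 SE; exact permutation p = 0.0286). *Atp6v1b2*, a subunit of the cytosolic ATP-hydrolysing part, was at 11.94, 11.76, 11.81 and 11.69 in WT and at 11.66, 11.62, 11.54 and 11.43 in knockout mice. Again no mouse overlapped, with a mean 15.1% lower (difference −0.24 ± 0.08 SE; exact permutation p = 0.0286). *Atp6v1a*, the catalytic subunit, was at 10.51, 10.25, 10.51 and 10.42 in WT and at 10.19, 10.21, 10.31 and 10.23 in knockout mice. WT replicate 2 lay within the knockout range, and the difference was −0.18 ± 0.08 (SE; exact permutation p = 0.0571). *Atp6v0b*, a subunit of the proton-carrying ring, differed by −0.15 ± 0.09 and the accessory subunit *Atp6ap1* by −0.11 ± 0.06. *Atp6v1h* (−0.03; 95% confidence interval −0.17 to 0.12) and *Atp6v0d1* (−0.03; −0.17 to 0.12) were near 0.

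*Tfeb* was at 8.01, 8.01, 8.20 and 8.01 in WT and at 8.08, 8.11, 8.12 and 8.12 in *Sucnr1*-/- mice. Apart from WT replicate 3, which was the highest of all, the knockout mice lay above the WT mice, and the difference was 0.05 (95% confidence interval −0.09 to 0.19). This is the transcript level and does not report where in the cell the TFEB protein is. Genes with and without an E-box in the promoter windows described above had these values. Of 13 measured genes with an E-box 11 had a lower mean (median −0.10, 3 lower at an unadjusted p under 0.05). Of 22 measured genes without one 17 had a lower mean (median −0.12, 6 at that level). For the 6 genes with the longer form, 5 had a lower mean and the median was −0.13.

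Across the mice, the mean over the 40 lysosomal genes, set relative to the WT mean, was −0.01, −0.08, 0.08 and 0.01 in WT and −0.12, −0.14, −0.11 and −0.11 in *Sucnr1*-/- mice. The 4 knockout mice were close together (SD 0.013) and the WT mice were more spread (SD 0.067), with WT replicate 2 nearest to the knockout group. Of the 40 genes, 36 had their highest value in a WT mouse, against 52.1% of all genes, 15 of them in WT replicate 3, against 11.1% of all genes. The lowest value was in a knockout mouse for 29 of the 40, against 44.4% of all genes. The SD was lower in the knockout group for 29 of 40 genes, and for 58.3% of all genes. By role, the protease, membrane and pump means of all knockout mice lay below those of all WT mice, for proteases and membrane proteins by a narrow margin (lowest WT −0.129 and −0.084, highest knockout −0.132 and −0.085), whereas the means of glycan-degrading and lipid-handling genes overlapped.

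**Figure D3:**
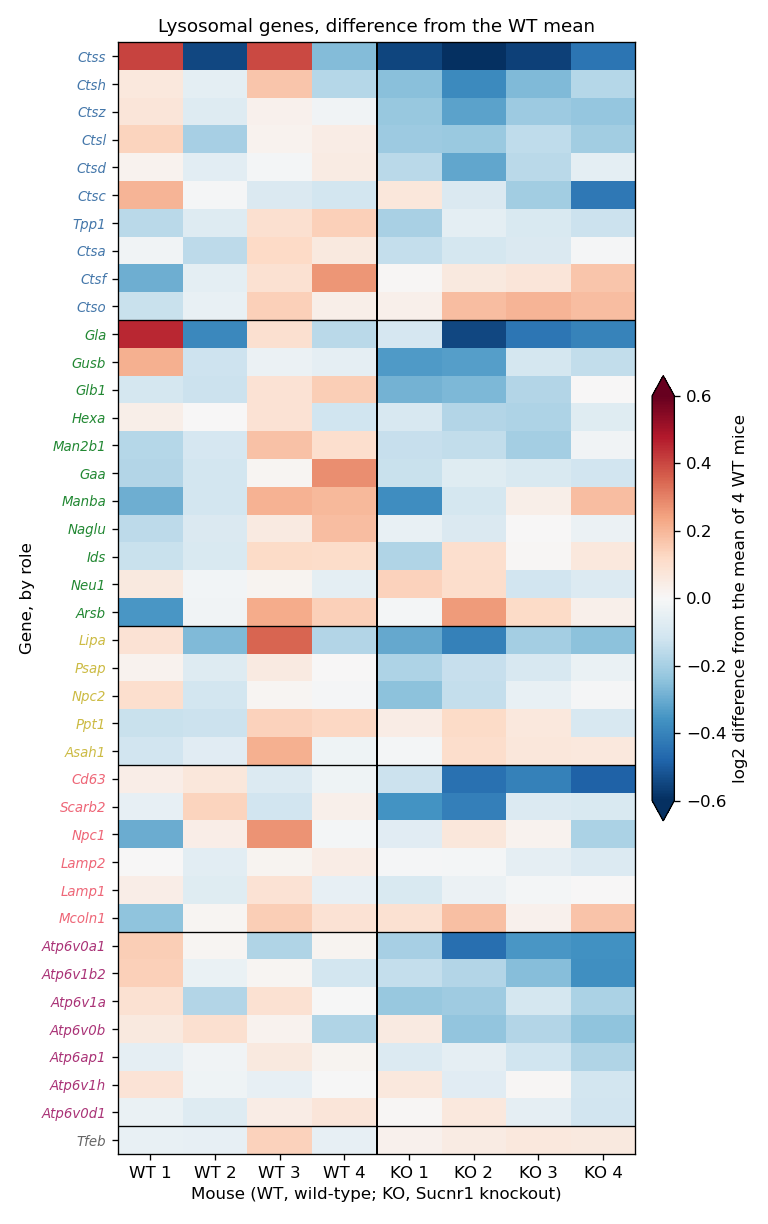
Log2 value of each lysosomal gene (rows, grouped by role) in each mouse (columns) relative to the WT mean of that gene. The knockout columns are mostly below the WT mean, and WT replicate 3 holds the highest value of 15 genes.

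Lysosomal genes outside the list were counted in the same way. Of all genes, 46.8% had a lower mean, and 3.36% were lower and 3.46% higher at an unadjusted p under 0.05 in limma. Of 26 further hydrolases and cofactors 19 had a lower mean (median −0.08, and −0.03 without WT replicate 3), with 2 lower and 0 higher at an unadjusted p under 0.05. These were *Dpp7*, a dipeptidyl peptidase, at −0.30 ± 0.08 (SE) and *Ctsk*, a collagen-degrading cathepsin, at −0.47 ± 0.14, both with no overlap between the groups, while *Pla2g15*, a lysosomal phospholipase, was at −0.18 ± 0.09 and *Ctse*, an aspartic protease, at −0.28 ± 0.16. Of 26 further membrane proteins 19 had a lower mean (median −0.05, and −0.03 to −0.08 without single mice), with 3 lower and 0 higher. *Clcn7*, the chloride-proton exchanger (−0.22 ± 0.07 SE), and *Tpcn2*, a cation channel (−0.24 ± 0.09, and −0.16 without WT replicate 1), did not overlap, and *Laptm5*, a gene of blood cells, was at −0.33 ± 0.12. *Slc15a3*, a peptide and histidine transporter, had a difference of −0.71 ± 0.35 (−0.38 without WT replicate 1). WT replicate 1 was high at 9.42, against 8.00 to 8.25 in the other WT mice, and knockout replicate 1 was high at 8.42, against 7.34 to 7.58 in the other knockout mice.

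The further pump genes went both ways. Of 20 measured, 11 had a lower and 9 a higher mean (14 lower without WT replicate 1), with a median of −0.03 that ran from −0.064 to −0.008 without single mice and was 0.002 with averaged probe sets and 0.011 with arrays centred on the median of the genes used. An unadjusted p under 0.05 was found for 2 of the former. *Tcirg1*, an isoform of the large membrane subunit known from osteoclasts, was at 10.21, 9.61, 9.95 and 9.62 in WT and at 9.46, 9.40, 9.42 and 9.45 in *Sucnr1*-/- mice. The groups did not overlap (difference −0.42 ± 0.13 SE). *Atp6v0d2*, an isoform found in osteoclasts and macrophages, was at 11.18, 10.05, 11.32 and 10.41 in WT and at 9.71, 10.09, 10.21 and 10.25 in knockout mice. WT replicate 2 lay within the knockout range (difference −0.68 ± 0.28 SE). *Atp6v0e2* and *Atp6v1e2* had higher means, at 0.36 ± 0.17 and 0.17 ± 0.09 (0.22 and 0.10 without WT replicate 1).

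Genes of the pathways around the lysosome were counted likewise, beside the same shares of all genes (3.36% lower and 3.46% higher at an unadjusted p under 0.05). Without overlap between the groups, 1.87% of all genes were lower and 2.37% higher. Of 14 genes that sort enzymes to the lysosome, 8 had a lower and 6 a higher mean (median −0.006, and −0.036 to 0.038 without single mice) and 0 reached an unadjusted p of 0.05 in either direction in limma. In this list *Gnptg*, which helps to make the mannose 6-phosphate tag, was at −0.10 ± 0.05 (SE) without overlap, the sorting receptor *Sort1* at 0.17 ± 0.12, and the adaptors *Gga2* and *Gga1* at 0.13 ± 0.10 and 0.10 ± 0.09 (0.06, 0.05 and 0.02 for the last 3 without WT replicate 1). Of 22 genes for relatives of TFEB and for nutrient sensing at the lysosome, 15 had a lower mean (median −0.05), with 1 lower and 1 higher at that level. The former was *Tfe3*, a relative of *Tfeb*, at −0.21 ± 0.09 (−0.14 without knockout replicate 4). The latter was *Lamtor4*, which anchors mTORC1 signalling to the lysosome, at 0.15 ± 0.06 with every knockout mouse above every WT mouse, beside *Flcn* at 0.20 ± 0.09 and *Lamtor5* at 0.11 ± 0.06. Of 24 autophagy genes 16 had a lower mean, with a median of −0.02 that ran from −0.063 to 0.008, turning sign without knockout replicate 4, and was 0.022 with arrays centred on the median of the genes used. At an unadjusted p under 0.05 there was 1 lower gene, *Plekhm1*, an adaptor for fusion with lysosomes, at −0.23 ± 0.10. *Atg7* was at 0.18 ± 0.08 (0.11 without WT replicate 1), *Atg16l1* at −0.12 ± 0.06 (−0.08 without knockout replicate 4) and *Map1lc3b*, which encodes LC3B, at −0.07 ± 0.06, the last pair without overlap between the groups. For *Map1lc3b* the highest knockout mouse, at 12.558, lay only just below the lowest WT mouse, at 12.561.

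Macrophage markers also had lower means. This was so for 21 of 23 measured markers (median −0.34, and −0.25 without WT replicate 1), while 2 had a higher mean. Their differences ran from −0.89 to 0.44. An unadjusted limma p under 0.05 was found for 7 lower markers and 1 higher marker, against 3.36% and 3.46% of all genes. Their mean per mouse, relative to WT, was 0.23, −0.14, 0.09 and −0.18 in WT and −0.23, −0.48, −0.28 and −0.35 in knockout mice, with no overlap. *Adgre1*, which encodes the macrophage antigen F4/80, was at 10.30, 10.10, 10.70 and 10.07 in WT and at 9.87, 9.59, 9.76 and 9.94 in knockout mice. All knockout mice lay below all WT mice (difference −0.50 ± 0.15 SE; exact permutation p = 0.0286). Such a lack of overlap was found for 4 of the 23 markers, against 1.87% of all genes.

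All 8 mast cell markers had a lower mean (median −0.33), against 46.8% of all genes. At an unadjusted p under 0.05, 5 of the 8 were lower, against 3.36% of all genes. Their list means were −0.10 to 0.11 in WT and −0.55 to −0.16 in *Sucnr1*-/- mice. Adipocyte markers had a higher mean for 13 of 14 genes (median 0.08, and 0.04 without WT replicate 1), and their list means of 0.08 to 0.15 in knockout mice overlapped those of −0.16 to 0.10 in WT mice. None of the macrophage or mast cell markers is in the lysosomal list. The part of these cells in the lysosomal values was not tested.

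**Figure D4:**
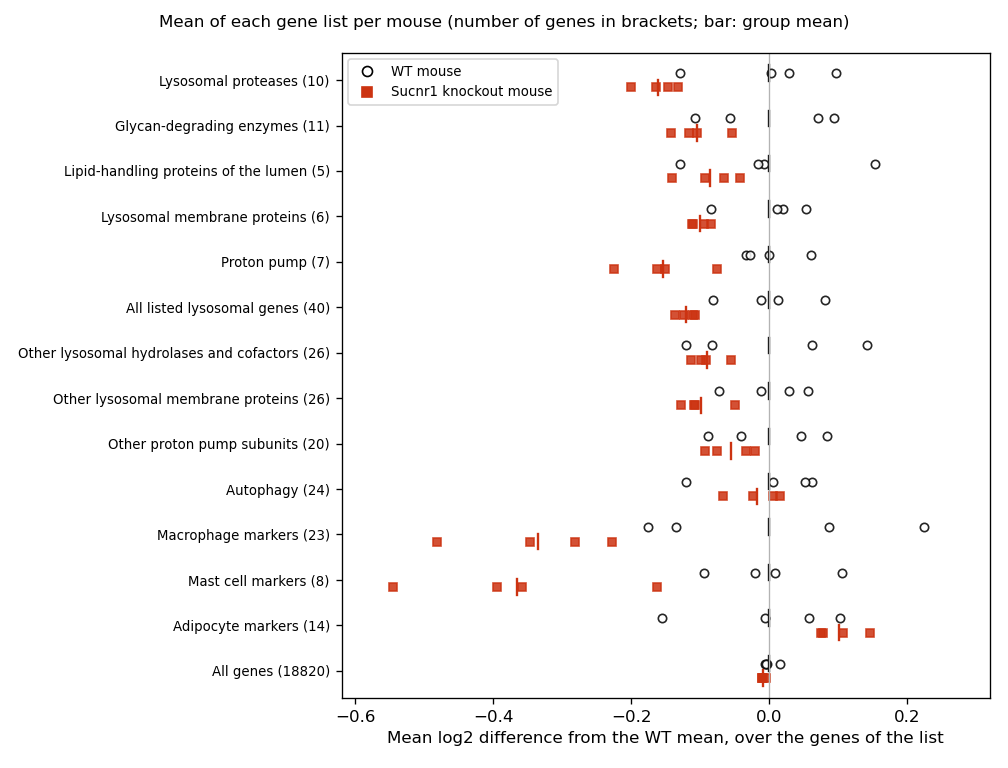
Mean log2 difference from the WT mean (x axis) over the genes of each list, in each mouse (open circles, WT; filled squares, *Sucnr1*-/-; bars, group means). Knockout means of the 40 lysosomal genes and of the macrophage and mast cell markers all lie below the WT means, and those of adipocyte markers overlap them on the higher side.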

How the data were processed

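Epididymal adipose RNA of 4 WT and 4 *Sucnr1*-/- LFD-fed mice was hybridised to Affymetrix arrays, 1 for each mouse. The deposited log2 values were made by the authors with RMA, named in the submitters' processing notes, which normalizes the arrays together and compresses low values. Its version, a genome build and a hybridisation date are not given in the sources used here, so batches could not be examined. Of 35556 probe sets, 21218 had exactly 1 symbol in the platform annotation and were used, and 1881 with several symbols and 12457 unnamed were not. By Entrez ID 21185 of the former matched RefSeq (GRCm38.p6), with 0 renamed.

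Genes were fitted with limma 3.58.1 (lmFit, eBayes) in R 4.3.3, with Benjamini-Hochberg adjustment over 18820 genes. Exact permutation tests used all 70 ways to choose 4 of 8 mice, and p-values of single genes from them are not adjusted. With 4 arrays a group, precision is limited. Replicates are separate mice.

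The lysosomal genes and other lists were chosen with earlier results of these data known. Members with an unadjusted p under 0.05 or without overlap, and *Tfeb*, *Lamp1*, *Ctsl* and *Lipa*, were described mouse by mouse, and up to 4 genes of smallest p were named per pathway list. Tried as alternatives were other scalings, array weights, a prior that depends on intensity, a filter on the dimmest 40% of genes, the methods' t-test, a replicate block, averaged probe sets, and fits without single mice or without both mice of replicate number 1. The fit was tested on simulated data with log2 changes larger than those of nearly all lysosomal genes here, so recovery of changes as small as theirs was not tested. Figures were drawn with matplotlib 3.10.9.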

Additional observations from a re-analysis of the deposited data

Results flagged for a closer look

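In 3 of 82 tests of 1 gene in 1 group of 4 mice, a single mouse stood apart from the other 3 by Dixon's criterion, which chance meets in about 1 of 20 groups. *Tfeb* was 8.196 in WT replicate 3, against 8.007 to 8.013 in the other WT mice. *Ctso* was 10.072 in knockout replicate 1, against 10.228 to 10.246 in the other knockout mice. *Ctsz* was 12.094 in knockout replicate 2, against 12.18 to 12.196 in the other knockout mice, all below the WT mice.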

How the results depend on the processing

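Over 18 alternatives no lysosomal gene passed an adjusted p of 0.05 in limma or in the methods' t-test (smallest 0.365). *Ctsz*, *Cd63*, *Atp6v0a1* and *Atp6v1b2* were lower at an unadjusted p under 0.05 in all 18 and *Ctsh* in 17, the exception being both mice of replicate number 1 left out. The count of 11 lower genes was 5 to 12 when single mice were left out, 5 without both mice of replicate number 1, and 6 with arrays centred on the median of the genes used, a scaling chosen after seeing the data, under which 1 gene, *Ctso*, was higher. The higher count was 0 to 1 when single mice were left out. The scaling set the balance of all genes: 652 were higher and 632 lower at an unadjusted p under 0.05 as reported, 355 and 979 with centring over all probe sets, and 1352 and 330 with centring over the genes used. Beside this, lower means were found for 33 of 40 lysosomal genes (57.4% of all genes) and for 27 of 40 (34.0%). A filter on the dimmest 40% of genes left 11292 genes, of which 369 were higher and 535 lower at an unadjusted p under 0.05. The count of lower lysosomal genes stayed at 11 with this filter. Without knockout replicate 2 there were 440 higher and 368 lower. The labels give no pairing, and the main fit had no replicate block. Deviations of same-numbered mice from their group means correlated positively in all 4 pairs (0.454, 0.141, 0.106 and 0.015). Differently numbered mice were not compared in this way, so whether same-numbered mice share more than a number cannot be told. With the replicate block 12 lysosomal genes were lower, 9 of them among the 11, with *Lipa*, *Gla* and *Glb1* gained and *Gusb* and *Scarb2* lost, and 809 genes were higher and 1096 lower.

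The median of the enzyme sorting list was −0.036 to 0.038 without single mice, 0.035 with centring over the genes used and 0.01 with quantile normalization. Of 40 lysosomal genes 28 never turned direction, among them all 11, and 12 did. Without single mice the difference was −0.023 to 0.164 for *Ctsf*, −0.093 to 0.021 for *Naglu*, −0.163 to 0.037 for *Manba*, −0.029 to 0.054 for *Neu1*, −0.047 to 0.056 for *Ids*, −0.018 to 0.173 for *Arsb*, −0.012 to 0.078 for *Ppt1*, −0.143 to 0.046 for *Npc1* and −0.053 to 0.006 for *Atp6v0d1*. Without both mice of replicate number 1 it was −0.01 for *Neu1*, 0.012 for *Ids* and −0.016 for *Ppt1*. Centring over all probe sets gave −0.018 for *Neu1*, and quantile normalization 0.016 for *Ids* and 0.002 for *Atp6v1h*. Centring over the genes used gave 0.037 for *Ids*, 0.007 for *Lamp1*, 0.003 for *Lamp2*, 0.016 for *Atp6v0d1* and 0.013 for *Atp6v1h*. The causes were not tested.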

Other observations

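Markers of other cells the fat pad could hold were also counted, as means per mouse relative to WT. Of 7 B cell markers all had a lower mean in *Sucnr1*-/- mice (median −0.82), but list means overlapped widely, from −0.79 to 1.16 in WT and from −1.34 to −0.16 in knockout mice, with WT replicate 1 the highest. Without WT replicate 1 the median was −0.31. T cell markers had a median of −0.33 (9 of 9 lower; −0.13 without WT replicate 3) and dendritic cell markers one of −0.18 (7 of 8 lower; −0.10 without WT replicate 1), both with overlapping list means. Neutrophil markers had a median of 0.19, which was −0.54 without knockout replicate 1 and 0.66 without WT replicate 1. Their list mean was 1.97 in knockout replicate 1 and 1.14 in WT replicate 1, against −0.849 to −0.003 in the other mice. Medians were −0.02 for endothelial, −0.01 for stromal progenitor, −0.18 for mesothelial and −0.01 for epididymal epithelium markers, and each of these turned sign when a single mouse was left out (highest 0.12 without WT replicate 2, 0.02 without WT replicate 3, 0.07 without knockout replicate 1 and 0.10 without WT replicate 2). The median of skeletal muscle markers was 0.05, from 0.02 to 0.08 without single mice. Immediate early genes had a median of −0.26 (10 of 12 lower), which was −0.08 (7 of 12 lower) without WT replicate 1 and −0.60 without knockout replicate 1, and their list mean was 0.65 in WT replicate 1 and 0.40 in knockout replicate 1, against −0.62 to −0.09 in the other 6 mice.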
